A study of Mus musculus with 14 samples.

Results

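The libraries described here are the endothelial-enriched RNA flushed from the carotid arteries of mice with an endothelial knockout of Poldip2 and of their floxed littermates, 8 of the 14 libraries of the series. They were taken by their labels: 4 were labelled endothelial enriched Poldip2-EC-/- and 4 endothelial enriched Poldip2-floxed, and all genes with enough counts were compared. All mice were C57BL/6, 10 weeks old and fed standard chow. After sacrifice both carotid arteries of a mouse were removed and 150 µL of Qiazol, a phenol-based lysis reagent, was pushed through the lumen, so that the lining dissolved first. The other 6 libraries were made from the artery left over after such a flush, 4 labelled with a smooth muscle knockout of Poldip2 and 2 labelled floxed. They served here, pooled whatever their label, only to show which RNAs the flush had enriched. The numbers of flushed controls EC748, EC790 and EC791 recur on left-over libraries LO748, LO790 and LO791, which are labelled smooth muscle knockout, and no source says whether a number marks a mouse. The controls are labelled Poldip2-floxed, and their labels mention no deletion. The sources used here name neither the Cre driver of the knockout nor whether the controls carry Cre. The design text names 4 mice per genotype, but no label ties a library to a mouse, so the p-values measure the spread between these libraries. The libraries are called knockout 1 to 4 and control 1 to 4 after the repeat numbers in the labels.

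Endothelial cells line the lumen of the artery, where they hold the barrier, carry the antithrombotic surface and release nitric oxide and prostacyclin. Below them lie layers of smooth muscle in an elastic matrix, and outside these the adventitia with its fibroblasts, macrophages, nerves and fat. Poldip2 is the polymerase delta interacting protein, first found as a partner of DNA polymerase delta and PCNA. It has since been tied to the NADPH oxidase Nox4, to focal adhesions, and, inside mitochondria, to the Clp protease and protein lipoylation.

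The flushed libraries held 20894125 to 22483607 counts in the knockouts and 18267924 to 23287155 counts in the controls. Between 23906 and 26954 genes had at least 1 count, and 14800 genes passed the filter on low counts. The labelled cell type was checked against its markers. The 20 endothelial marker genes summed to 18442 to 20702 CPM (counts scaled to a common library total) in the knockouts and 18164 to 20884 CPM in the controls, against 432 to 1802 CPM in the left-over libraries. No marker of any cell type list was at 0 in all 8 libraries. Knockout 1 stood apart on the first principal component, which held 36.1% of the variance. Its coordinate was -58.1, against 15.3 to 30.4 in knockouts 2 to 4 and -24.8 to 13.7 in the controls.

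Poldip2 (ENSMUSG00000001100) lies on the + strand of GRCm38 at chr11:78512193-78522736. Its RNA stood at 31.3, 21.7, 22.5 and 18.9 CPM in knockouts 1 to 4 and at 41.1, 39.2, 42.3 and 52.0 CPM in controls 1 to 4. All 4 knockouts were below all 4 controls, and knockout 1 was the nearest to them. The means were 23.6 ± 5.35 CPM in the knockouts and 43.7 ± 5.69 CPM in the controls (SD, n = 4 each), so that the knockouts held 54.0% of the control level. The log2 fold change, knockout over control, was -0.89 (SE 0.16), and an exact two-sided permutation test of the means gave p = 0.0286, the smallest that 70 arrangements can give. In edgeR's quasi-likelihood test over all genes the adjusted p was 0.270. It was 0.0377 without knockout 1 and 2.15e-04 in DESeq2, and 6 of 23 alternative fits called the gene. The counts are per gene, so reads from exons outside a deleted part are included. The wall holds Poldip2 RNA too: its flushed mean was 77.3% of the mean of the left-over libraries, most of which are labelled smooth muscle knockout. What part RNA of wall cells had in the level of the knockouts was not tested.

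No gene passed an adjusted p under 0.05 in edgeR (0% of 14800), the smallest adjusted p being 0.227. At an unadjusted p under 0.05 there were 917 genes (6.20%), of which 429 (2.90%) were higher and 488 (3.30%) lower in the knockouts. The groups did not overlap in 567 genes (3.83%), of which 309 (2.09%) had every knockout above every control and 258 (1.74%) every knockout below. Log2 fold changes were above 0 in 51.5% of the 14800 genes. DESeq2 called 68 genes, 22 higher and 46 lower (0.523% of 12999). limma voom with sample quality weights called 4 (0.0270%), and a block in edgeR on 3 ranges of neighbouring library numbers in the labels called 13 (0.0878%). Leaving out knockout 1 gave 20 calls in edgeR, 1 higher and 19 lower, leaving out control 4 gave 1 call, and leaving out any other single library gave 0. The authors' deposited table listed 56 genes at an adjusted p under 0.05 (0.378% of 14831), 23 higher and 33 lower. All 56 were at an unadjusted p under 0.05 here, and 50 of them had no overlap between the groups. Both results rest on the same libraries, so this is no independent check. The values of the genes described next are differences that did not pass over all genes in the edgeR fit unless a call is named. Genes named over all genes or by where their RNA came from were picked for showing no overlap, so for them this is no result.

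The left-over libraries divided the genes by where their RNA came from. A gene was called flush-enriched where its mean CPM was at least 4 times higher in the 8 flushed than in the 6 left-over libraries, and wall-enriched where it was at least 4 times lower. Both genotypes entered the flushed mean. The 1196 flush-enriched genes had a median log2 fold change of 0.00 and the 12407 genes in between one of 0.01, and the median over all 14800 was 0.01 as well. The 1197 wall-enriched genes had a median of -0.22. Of the flush-enriched genes 77 were higher and 42 lower at an unadjusted p under 0.05 (9.95%), and of the wall-enriched 35 were higher and 121 lower (13.03%). The wall-enriched genes were also measured less well, with a median SE of 0.484 on the log2 scale against 0.156 for the flush-enriched. Without knockout 1 the counts were 84 higher and 42 lower for the flush-enriched and 17 higher and 467 lower for the wall-enriched genes, whose median was then -0.66. Over all 15154 genes tested in that fit, 457 were higher and 863 lower. Counts without knockout 1 given below stand against these.

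**Figure D1:**
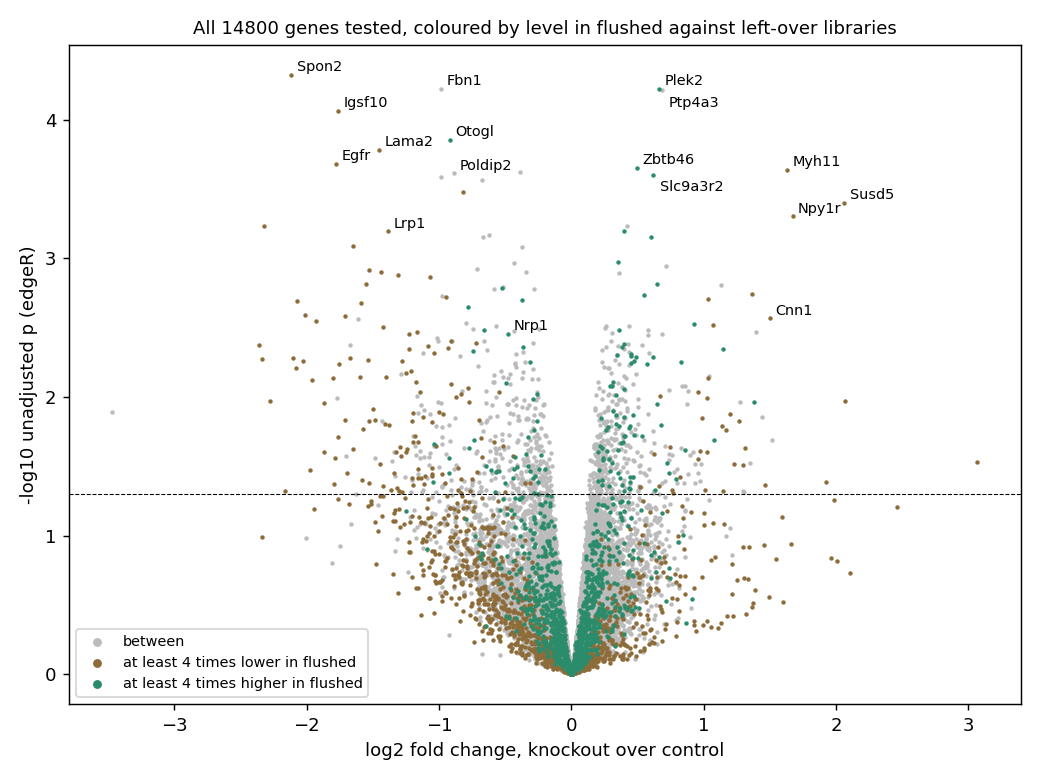
Log2 fold change of each of the 14800 genes tested, knockout over control (horizontal axis), against -log10 of its unadjusted edgeR p (vertical axis). The dashed line marks the unadjusted edgeR threshold of 0.05. Colours mark genes at least 4 times higher in the flushed libraries (1196), at least 4 times lower (1197) or between. The wall-enriched genes spread widest, with 121 lower and 35 higher above the line.

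Among genes whose RNA the flush had enriched, the higher ones in the knockouts had moderate differences. Plek2 (ENSMUSG00000021118, GRCm38 chr12:78888691-78906964, - strand) encodes pleckstrin 2, a membrane and actin binding protein. It had 142, 123, 129 and 116 CPM in knockouts 1 to 4 and 75.8, 73.1, 77.3 and 94.8 CPM in controls 1 to 4. The groups did not overlap, and the log2 fold change was 0.67 (SE 0.10, edgeR adjusted p = 0.227). Plek2 was called in 5 of 23 alternative fits, among them DESeq2 and the fit with a covariate for fibroblast markers. Slc9a3r2, which encodes the scaffold NHERF2, stood at 1401, 1184, 1381 and 1389 CPM in knockouts 1 to 4 and at 989, 740, 857 and 909 CPM in controls 1 to 4. Its log2 fold change was 0.62 (SE 0.11, adjusted p = 0.270), and the naming rule required both genes to be without overlap.

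Zbtb46, a zinc finger transcription factor known from dendritic cells and endothelium, had 103, 101, 118 and 102 CPM in knockouts 1 to 4 and 79.0, 82.9, 66.9 and 71.6 CPM in controls 1 to 4. Its log2 fold change was 0.50 (SE 0.09). Stmn2, a stathmin that destabilises microtubules, Pik3c2b, a class II phosphoinositide 3-kinase, and Klk8, a secreted serine protease, were the other flush-enriched genes named by the rule. Their log2 fold changes were 0.40 for Stmn2, 0.61 for Pik3c2b and 0.35 for Klk8, each without overlap, as the rule required. Outside that class, Ptp4a3, a membrane-bound phosphatase, averaged 71.3 ± 5.48 CPM in the knockouts and 44.4 ± 5.68 CPM in the controls (SD, n = 4 each). Me1, the cytosolic malic enzyme, averaged 100.5 ± 9.68 CPM in the knockouts and 75.2 ± 4.74 CPM in the controls. Ptgis, the prostacyclin synthase, averaged 524 ± 18.1 CPM in the knockouts and 408 ± 30.4 CPM in the controls. Its log2 fold change was 0.36 (SE 0.08), and the adjusted p was 0.537 in edgeR and 0.0118 in the authors' deposited table.

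Flush-enriched genes that were lower in the knockouts were led by Otogl, which encodes the otogelin-like glycoprotein known from the inner ear. It had 18.5, 18.2, 15.96 and 12.6 CPM in knockouts 1 to 4 and 26.1, 30.7, 28.8 and 38.0 CPM in controls 1 to 4, a log2 fold change of -0.92 (SE 0.15, adjusted p = 0.270). Nrp1 (neuropilin 1), the co-receptor for VEGF and semaphorins, stood at 550, 581, 640 and 742 CPM in knockouts 1 to 4 and at 793, 796, 1030 and 877 CPM in controls 1 to 4. The groups did not overlap although knockout 4 came near controls 1 and 2, and the adjusted p was 0.638 (log2 fold change -0.48, SE 0.12). Igf2r, the receptor that carries mannose 6-phosphate proteins and IGF2 to lysosomes, averaged 154 ± 15.5 CPM in the knockouts and 200 ± 12.1 CPM in the controls (SD, n = 4 each). Fbxl7, a substrate receptor of an SCF ubiquitin ligase, had a log2 fold change of -0.53. Neto2, an auxiliary subunit of kainate receptors, had one of -0.66, and Fam78b one of -0.78. In each of these genes every knockout was below every control, as the naming rule required.

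**Figure D2:**
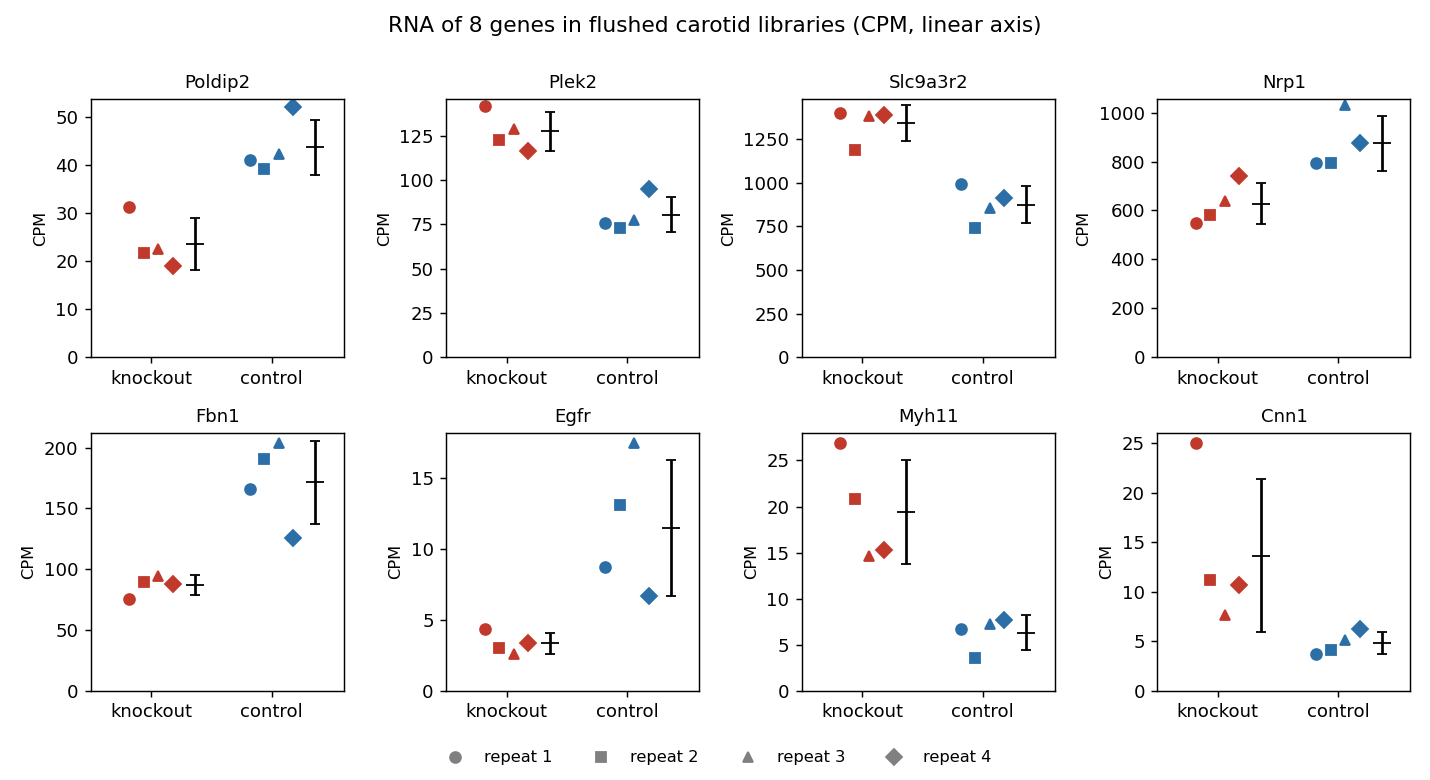
CPM of 8 genes in each flushed library, knockouts left and controls right of each panel, with the repeat number as marker shape and the mean ± SD (n = 4) as a bar. The groups do not overlap in any of these 8 genes, which the naming rule required of all but Poldip2. Cnn1 shows 1 high knockout (25.02 CPM) above the other 3 (7.69 to 11.2 CPM).

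Endothelial identity genes showed small differences. Of the 20 endothelial markers 2 were higher and 1 lower at an unadjusted p under 0.05, and their median log2 fold change was 0.08. Over all genes 2.90% were higher and 3.30% lower at that p. Nos3, the endothelial nitric oxide synthase, had 647, 523, 527 and 577 CPM in knockouts 1 to 4 and 442, 375, 465 and 462 CPM in controls 1 to 4 (log2 fold change 0.38, SE 0.10, adjusted p = 0.638). Vwf, the von Willebrand factor, had 4121, 4003, 4075 and 4272 CPM in knockouts 1 to 4 and 4395, 4398, 5395 and 5385 CPM in controls 1 to 4. Both genes had no overlap, in opposite directions. Cldn5, a tight junction claudin, was high in knockouts 1 and 4 (351 and 386 CPM) and at 215 and 240 CPM in knockouts 2 and 3, against 200.1 to 245 CPM in the controls.

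The lists of endothelial function had medians near that of all genes. The 16 junction genes had 1 higher and 0 lower at an unadjusted p under 0.05, with a median log2 fold change of 0.07. The 15 shear-responsive and vasoactive genes had 2 higher and 1 lower, with a median of -0.03, and the 12 Notch pathway genes had 1 higher and 0 lower, also with a median of -0.03. Among the 15 tested genes of endothelial activation and adhesion, and among the 15 interferon genes, none was past that p in either direction, and none was called by DESeq2. The medians were -0.02 for the activation list and -0.11 for the interferon list. Without knockout 1 the junction list had 0 higher and 1 lower, the Notch list none and the interferon list 1 lower. Klf4, a flow-induced transcription factor, was the lower shear gene, with 138, 162, 193 and 138 CPM in knockouts 1 to 4 and 282, 215, 192 and 157 CPM in controls 1 to 4. The groups overlapped, and the log2 fold change was -0.42 (SE 0.18).

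The genes tied to Poldip2 itself showed few differences. Of 13 genes for its reported partners, 1 was past an unadjusted p of 0.05: Pold1, the catalytic subunit of DNA polymerase delta, averaged 62.8 ± 7.12 CPM in the knockouts and 50.1 ± 4.52 CPM in the controls (SD, n = 4 each). Its log2 fold change was 0.33 (SE 0.10, adjusted p = 0.701), and knockout 3 lay inside the control range. The median of the list was 0.01. Pcna and Nox4, added here after their values were seen, both overlapped. Pcna spanned 35.2 to 46.5 CPM in the knockouts and 35.8 to 42.9 CPM in the controls. Nox4 stood at 34.7 CPM in knockout 1, at 7.96 to 16.9 CPM in the other knockouts and at 15.2 to 26.1 CPM in the controls. Of 19 NADPH oxidase and antioxidant genes none was past an unadjusted p of 0.05 in edgeR or called by DESeq2, and their median was 0.07. That count rested on knockout 1, which was above every control in 12 of the 19. Without it 1 was higher and 4 were lower at an unadjusted p under 0.05, with a median of 0.06.

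RNA from the mitochondrial DNA had negative values, and nuclear genes for mitochondrial functions had small ones. All 11 tested genes of the mitochondrial DNA had negative log2 fold changes, and the median was -0.44. At an unadjusted p under 0.05, 5 of them were lower, against 3.30% lower over all genes. mt-Nd4, a complex I subunit, had 159, 162, 218 and 114 CPM in knockouts 1 to 4 and 258, 283, 249 and 228 CPM in controls 1 to 4, without overlap (log2 fold change -0.64, SE 0.17, adjusted p = 0.638). mt-Cytb, the cytochrome b of complex III, averaged 706 ± 141 CPM in the knockouts and 975 ± 65.5 CPM in the controls. Without knockout 1 there were 7 of 11 genes lower at that p (863 of 15154 over all genes), with a list median of -0.47. Among nuclear genes, 21 of 22 for oxidative phosphorylation and 17 of 20 genes for lipoylation, the Clp protease and the TCA cycle had positive values. Their medians were small, 0.08 and 0.09, with 1 gene of each list higher at an unadjusted p under 0.05, against 2.90% higher over all genes. Knockout 1 was above every control in 18 of the 22 genes for oxidative phosphorylation, and knockouts 2 to 4 were all above them in 3. With a smooth muscle score (the mean log2 CPM of contractile genes) as a covariate that list had 4 positive and 18 negative values (median -0.06). The score separated the groups, so genotype and smooth muscle content cannot be told apart in that fit. Without covariates the list's gene past an unadjusted p of 0.05 was Sdhc, a subunit of succinate dehydrogenase. It had 75.2 ± 3.69 CPM in the knockouts and 65.3 ± 3.50 CPM in the controls (SD, n = 4 each). The share of counts from mitochondrial genes, 0.176 to 0.344% in the knockouts and 0.316 to 0.415% in the controls, is small in all libraries, and the sources used here do not say how RNA was selected. Whether library preparation had a part in the difference was not tested.

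The extracellular matrix genes had mostly negative values. Of 26 genes 23 had negative log2 fold changes and 9 were lower at an unadjusted p under 0.05, with 0 higher, against a background of 3.30% lower over all genes. The median was -0.23, and without knockout 1 it was -0.39, with 11 lower. Fbn1 (ENSMUSG00000027204, GRCm38 chr2:125300594-125507993, - strand) encodes fibrillin 1, the backbone of the microfibrils that carry elastin and bind latent TGF-beta. It had 75.2, 89.0, 94.5 and 87.6 CPM in knockouts 1 to 4 and 166, 191, 203 and 125 CPM in controls 1 to 4. The groups lay apart, with control 4 the nearest to the knockouts. The log2 fold change was -0.98 (SE 0.14, edgeR adjusted p = 0.227), and Fbn1 was called in 5 of 23 alternative fits, including DESeq2 (adjusted p = 5.46e-06) and the block on library number (0.0198). Its flushed mean was 66.4% of the left-over mean, so it was in neither class.

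Spon2, a secreted spondin, was at 0.536, 0.402, 0.358 and 0.732 CPM in knockouts 1 to 4 and at 1.95, 2.27, 2.78 and 1.85 CPM in controls 1 to 4, with a log2 fold change of -2.11 (SE 0.30). Its counts were low, although all 8 values were above the 0.129 to 0.164 CPM that a count of 3 gives in these libraries. Lama2, the laminin chain of muscle and nerve basement membranes, had 4.91, 3.57, 4.11 and 3.07 CPM in knockouts 1 to 4 and 9.06, 10.6, 15.7 and 7.63 CPM in controls 1 to 4 (log2 fold change -1.45, SE 0.24). Tnxb, tenascin X, averaged 8.46 ± 1.76 CPM in the knockouts and 16.8 ± 2.86 CPM in the controls, and Loxl1, a lysyl oxidase of elastic fibres, 16.1 ± 3.51 CPM in the knockouts and 26.6 ± 6.39 CPM in the controls (SD, n = 4 each). Other matrix RNAs overlapped, among them 2 named after their values were seen. Eln, elastin, spanned 3048 to 5154 CPM in the knockouts and 2466 to 4696 CPM in the controls, and Col4a1, a basement membrane collagen, 658 to 1214 CPM in the knockouts and 936 to 1071 CPM in the controls.

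The EGF receptor was lower as well. Of the 9 tested genes of its family and their ligands, 6 had negative and 3 positive log2 fold changes (median -0.13). At an unadjusted p under 0.05, 2 were lower and 1 higher, against 3.30% lower and 2.90% higher over all genes. Egfr (ENSMUSG00000020122) had 4.38, 3.04, 2.59 and 3.37 CPM in knockouts 1 to 4 and 8.76, 13.1, 17.5 and 6.66 CPM in controls 1 to 4. Every knockout lay below every control, while the controls varied by more than the knockouts did. The log2 fold change was -1.78 (SE 0.31, adjusted p = 0.270), and 3 of 23 alternative fits called the gene. Of its ligands Ereg, epiregulin, a flush-enriched RNA, had 6.08, 23.9, 17.9 and 15.8 CPM in knockouts 1 to 4 and 38.8, 37.7, 29.2 and 24.99 CPM in controls 1 to 4 (log2 fold change -1.04, SE 0.36). Erbb2, the receptor's partner without a ligand of its own, had a log2 fold change of 0.20. Nrg1, a ligand of the related receptors, had one of -1.09 with an SE of 0.64, the lowest value being 0.447 CPM in knockout 1. Among other receptors of the wall, Lpar1, for lysophosphatidic acid, had a log2 fold change of -0.81, and Lrp1, an endocytic receptor, one of -1.38. Igsf10, an immunoglobulin superfamily protein, had one of -1.76 and was the gene called most often, in 7 of 23 alternative fits.

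RNA of wall cells in the flush differed between the libraries too. The 15 fibroblast markers summed to 6150, 2800, 2937 and 2874 CPM in knockouts 1 to 4 and to 4324, 4204, 6973 and 4825 CPM in controls 1 to 4, against 52589 to 65703 CPM in the left-over libraries. Knockouts 2 to 4 were below every control, and knockout 1 was above all controls but control 3. Of the 15 markers 11 had negative and 4 positive log2 fold changes, and the median was -0.59. At an unadjusted p under 0.05, 5 were lower and 1 higher, against 3.30% lower and 2.90% higher over all genes. Without knockout 1 the median was -1.94, with 13 lower and 1 higher (863 and 457 of 15154 over all genes). In these bulk libraries fewer fibroblasts and less of their RNA per cell cannot be told apart. Gsn, gelsolin, had 1087, 583, 669 and 605 CPM in knockouts 1 to 4 and 1321, 1223, 1844 and 1287 CPM in controls 1 to 4 (log2 fold change -0.95, SE 0.22). Cd248, endosialin, averaged 11.9 ± 7.03 CPM in the knockouts and 45.3 ± 19.3 CPM in the controls (SD, n = 4 each). Ly6a, the higher member, is expressed by endothelial cells too, and its flushed mean (1229 CPM) was close to its left-over mean (1466 CPM).

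**Figure D3:**
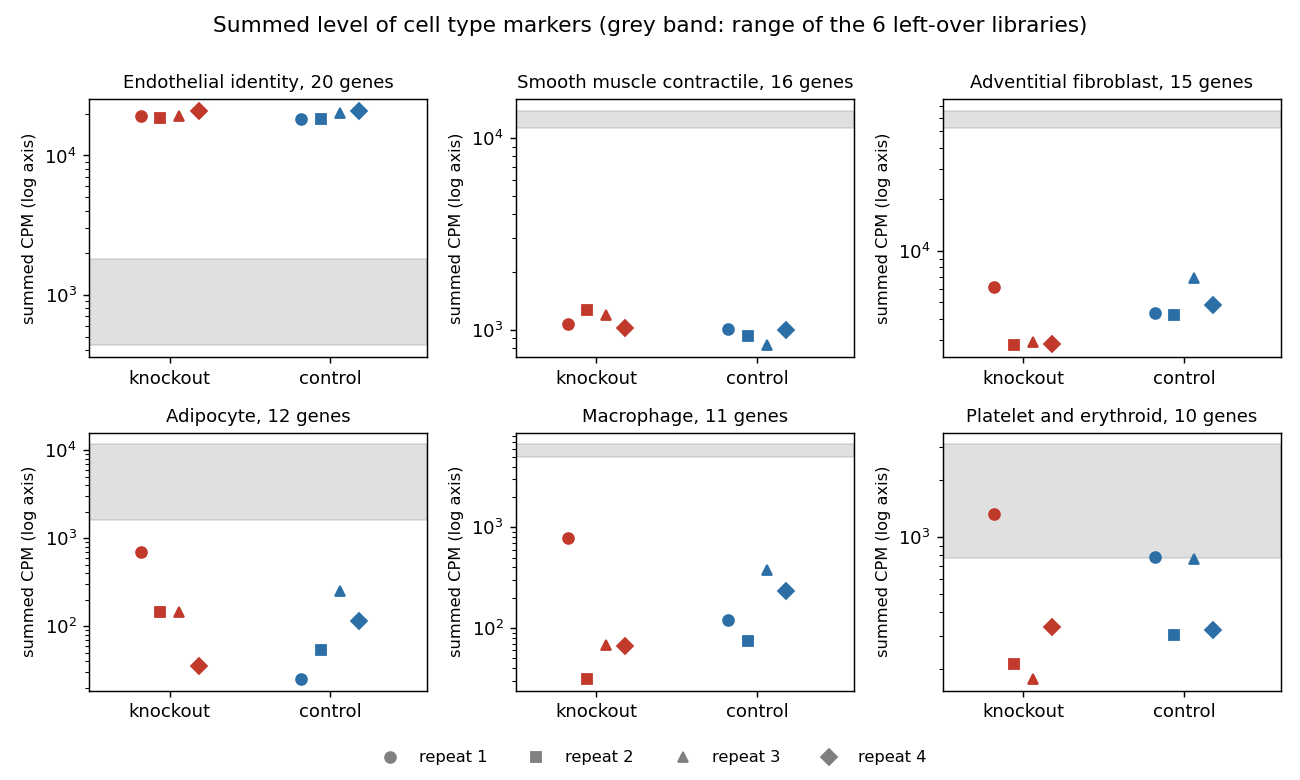
Summed CPM of 6 marker lists (log axis) in each flushed library, knockouts left and controls right, with the range of the 6 left-over libraries as a grey band. Fibroblast markers are lowest in knockouts 2 to 4 (2800 to 2937 CPM), smooth muscle markers are higher in all 4 knockouts (1016 to 1265 CPM) than in the controls (827 to 1004 CPM), and knockout 1 is the highest for adipocyte, macrophage and blood markers.

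In knockout 1 the wall-enriched genes and Fbn1 did not all stand on the same side of the controls. Decorin (Dcn), an abundant fibroblast proteoglycan chosen here after its values were seen, had 991, 66.8, 90.5 and 79.7 CPM in knockouts 1 to 4 and 383, 265, 601 and 339 CPM in controls 1 to 4. Knockout 1 held the highest and the other knockouts the lowest values of all 8 libraries, so that the log2 fold change of -0.37 had an SE of 0.95. It was -2.33 without knockout 1 and 0.34 once the fibroblast score entered the fit as a covariate. The fibroblast score is the mean log2 CPM of the 15 markers, Dcn among them, so that fit in part regresses Dcn on itself. In knockout 1, 8 of the 15 fibroblast markers were above every control and 2 were below. In the same library Fbn1, Spon2, Igsf10, Lama2, Egfr, Lpar1 and Lrp1 were below every control, which the naming rule required of them, since it took genes whose groups did not overlap. Per unit of Dcn, Fbn1 was 0.0759, 1.33, 1.04 and 1.10 in knockouts 1 to 4 and 0.433, 0.719, 0.339 and 0.370 in controls 1 to 4. That ratio was below the controls in knockout 1 and above them in the others. Fbn1 was not wall-enriched, its flushed mean being 66.4% of the left-over mean against 4.55% for Dcn, so its ratio is not of wall-enriched RNAs alone. Egfr per Dcn was 0.00442 in knockout 1, 0.0286 to 0.0455 in the other knockouts and 0.0197 to 0.0494 in the controls. The fibroblast marker Cd248 per Dcn was likewise lowest in knockout 1 (0.0223), against 0.0890 to 0.122 in the other knockouts and 0.0943 to 0.130 in the controls. The low ratios of knockout 1 were thus not particular to Fbn1 and Egfr, and all of them divide by its high Dcn. In the fit with this covariate Fbn1 had a log2 fold change of -1.04 (adjusted p = 0.0563), Egfr one of -1.38 (0.0943) and Igsf10 one of -1.33 (0.0388). That fit called 105 genes, 56 higher and 49 lower (0.709%). With other covariates these differences moved either way. Fbn1 had a log2 fold change of -0.45 with the smooth muscle score and -0.29 with the fibroblast and smooth muscle scores together. Egfr had one of -1.64 with the smooth muscle score and -0.076 with both scores. Igsf10 had one of -2.52 with the smooth muscle score.

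**Figure D4:**
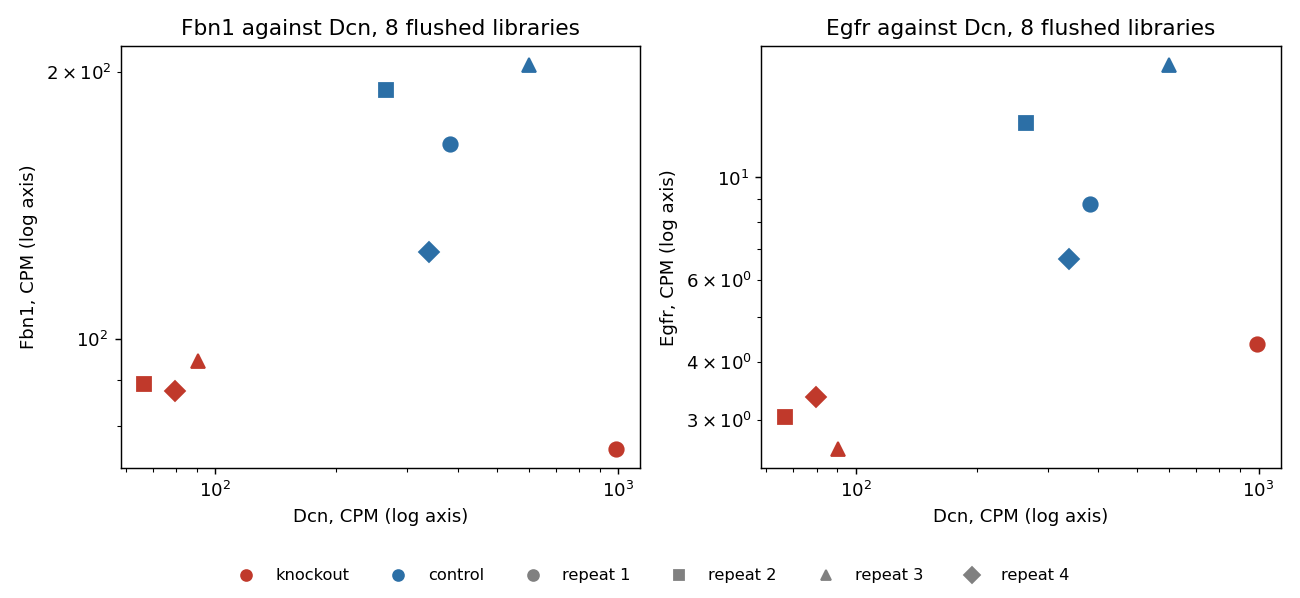
CPM of Fbn1 (left) and Egfr (right) against CPM of the fibroblast gene Dcn in each of the 8 flushed libraries, both axes logarithmic, with knockouts and controls by colour and repeat number by shape. Knockout 1 lies at the highest Dcn (991 CPM) but among the low values of Fbn1 (75.2 CPM) and Egfr (4.38 CPM).

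Smooth muscle RNA went the other way. Of the 15 tested contractile genes 12 had positive log2 fold changes and 8 were higher at an unadjusted p under 0.05, with 0 lower, against 2.90% higher over all genes, and the median was 0.63. The whole list summed to 1065, 1265, 1187 and 1016 CPM in knockouts 1 to 4 and to 1004, 926, 827 and 991 CPM in controls 1 to 4, against 11269 to 13790 CPM in the left-over libraries. All knockouts were above all controls by a narrow margin. Myh11 (ENSMUSG00000018830, GRCm38 chr16:14194527-14291408, - strand), the smooth muscle myosin heavy chain, had 26.9, 20.8, 14.6 and 15.3 CPM in knockouts 1 to 4 and 6.66, 3.50, 7.21 and 7.71 CPM in controls 1 to 4. Its log2 fold change was 1.63 (SE 0.28), the adjusted p was 0.270 in edgeR and 1.02e-05 in DESeq2, and the flushed mean was 2.81% of the left-over mean. Cnn1, calponin 1, had 25.02, 11.2, 7.69 and 10.7 CPM in knockouts 1 to 4 and 3.69, 4.14, 5.16 and 6.26 CPM in controls 1 to 4 (log2 fold change 1.502, SE 0.36). Acta2, smooth muscle actin, overlapped, with 313, 358, 272 and 205 CPM in knockouts 1 to 4 and 170, 199, 128 and 224 CPM in controls 1 to 4. Without knockout 1 the list had 6 higher and 0 lower, with a median of 0.45.

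The other wall-enriched genes named for being higher included 2 known from smooth muscle. Itga8 (integrin alpha 8) and Actg2 (smooth muscle gamma actin) had log2 fold changes of 1.36 and 1.03. Npy1r, the Y1 receptor for neuropeptide Y, had 3.40, 3.62, 2.06 and 2.24 CPM in knockouts 1 to 4 and 0.666, 0.640, 1.36 and 0.882 CPM in controls 1 to 4 (log2 fold change 1.67, SE 0.33). Susd5 averaged 3.30 ± 0.98 CPM in the knockouts and 0.78 ± 0.38 CPM in the controls (SD, n = 4 each). Myh11 is itself a member of the smooth muscle score. With that score as a covariate Myh11 had a log2 fold change of 0.36 (adjusted p = 0.928). No gene was called in that fit, 810 genes being at an unadjusted p under 0.05. The score was 4.58 to 5.005 in the knockouts and 4.13 to 4.40 in the controls. It separated the groups, so genotype and smooth muscle content cannot be told apart in that fit.

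Markers of other cell types varied widely between libraries, knockout 1 above all. Adipocyte markers summed to 704, 145, 147 and 35.1 CPM in knockouts 1 to 4 and 25.2, 53.7, 254 and 116 CPM in controls 1 to 4. Macrophage markers summed to 782, 31.2, 67.7 and 65.7 CPM in knockouts 1 to 4 and 120, 73.7, 374 and 231 CPM in controls 1 to 4. Knockout 1 was the highest library in both lists and in the platelet and erythroid list (1327 CPM, against 178 to 334 CPM in the other knockouts and 302 to 784 CPM in the controls). Of 11 tested adipocyte genes 0 were past an unadjusted p of 0.05 in edgeR or called by DESeq2, although 10 had positive log2 fold changes (median 1.31). Without knockout 1, 6 of these adipocyte genes were positive and 5 negative, with a median of 0.11. Of 9 tested macrophage genes 1 was lower, the mannose receptor Mrc1, with 2.31 ± 1.92 CPM in the knockouts and 8.46 ± 6.80 CPM in the controls (SD, n = 4 each). Without knockout 1 the macrophage list had 7 of 9 lower (863 of 15154 over all genes), with a list median of -2.53. In 6 of the 9 macrophage genes knockout 1 was above every control, and in 6 knockouts 2 to 4 were below every control. Of 6 tested pericyte markers 2 were higher, the proteoglycan gene Cspg4 (log2 fold change 0.96) and Notch3 (1.17). Without knockout 1 the pericyte list had 2 higher and 2 lower, and its median was -0.12, against 0.39 with all libraries. Of 6 Schwann cell and neuronal markers 1 was higher, Uchl1 (0.42). The lymphocyte, thyroid, skeletal muscle, lymphatic and blood lists had none past that p, and none of their genes was called by DESeq2. Their medians ran from -0.74 for the 2 thyroid genes tested to -0.10 for blood. The blood value rested on knockout 1, which was above every control in all 9 blood genes tested. Without it all 9 were negative, 2 of them at an unadjusted p under 0.05, with a median of -1.12. The lymphatic and skeletal muscle lists then had 1 gene each lower at that p.

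Clock genes differed between libraries within both groups. The clock of each cell turns on Per, Rev-erb and D-box factor genes in one part of the day, through E-box and D-box elements, and Arntl (Bmal1), Npas2 and Nfil3 in the opposite part. A clock score, the mean log2 CPM of 11 genes of the first kind minus that of 5 genes of the second, was 2.87, 1.10, 1.30 and 1.04 in knockouts 1 to 4 and -0.29, -0.41, 0.85 and 1.63 in controls 1 to 4. The groups overlapped through control 4, and knockout 1 was the highest library. The labels do not give the hour of death. By the numbers that the labels attach to libraries, the scores were 1.30 and 1.10 in knockouts EC731 and EC749 and -0.29 in control EC748. They were 1.04 in knockout EC792 and -0.41 and 0.85 in controls EC790 and EC791. Among the highest numbers the score was 2.87 in knockout EC803 and 1.63 in control EC802. In each of these ranges of neighbouring numbers the knockouts were the higher, and no source used here says what the numbers mark.

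Dbp, a D-box factor, had 96.1, 33.3, 34.0 and 36.7 CPM in knockouts 1 to 4 and 7.84, 6.30, 22.1 and 49.9 CPM in controls 1 to 4 (log2 fold change 1.21, SE 0.72). Ciart, a repressor of the clock, had 13.002, 3.39, 6.03 and 3.32 CPM in knockouts 1 to 4 and 1.43, 1.58, 2.84 and 4.19 CPM in controls 1 to 4 (1.35, SE 0.52). Arntl, the partner of Clock, had 4.07, 20.7, 24.0 and 20.5 CPM in knockouts 1 to 4 and 45.0, 50.7, 24.6 and 13.3 CPM in controls 1 to 4 (-0.95, SE 0.59). In all 3 genes control 4 lay within the knockout range, and control 3 lay between that range and controls 1 and 2. Nfil3, a repressor at D-boxes, was the clock gene without overlap, at 8.49, 16.4, 14.1 and 16.5 CPM in knockouts 1 to 4 and 27.2, 31.3, 31.0 and 19.7 CPM in controls 1 to 4. Its log2 fold change was -0.98 (SE 0.22, edgeR adjusted p = 0.583), and the adjusted p was 0.00949 in DESeq2 and 0.0198 with the block on library number. Of the 11 genes of the first kind 2 were higher at an unadjusted p under 0.05, Ciart and Bhlhe41, and of the 5 of the second kind 1 was lower. Without knockout 1 these counts were 0 and 1.

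**Figure D5:**
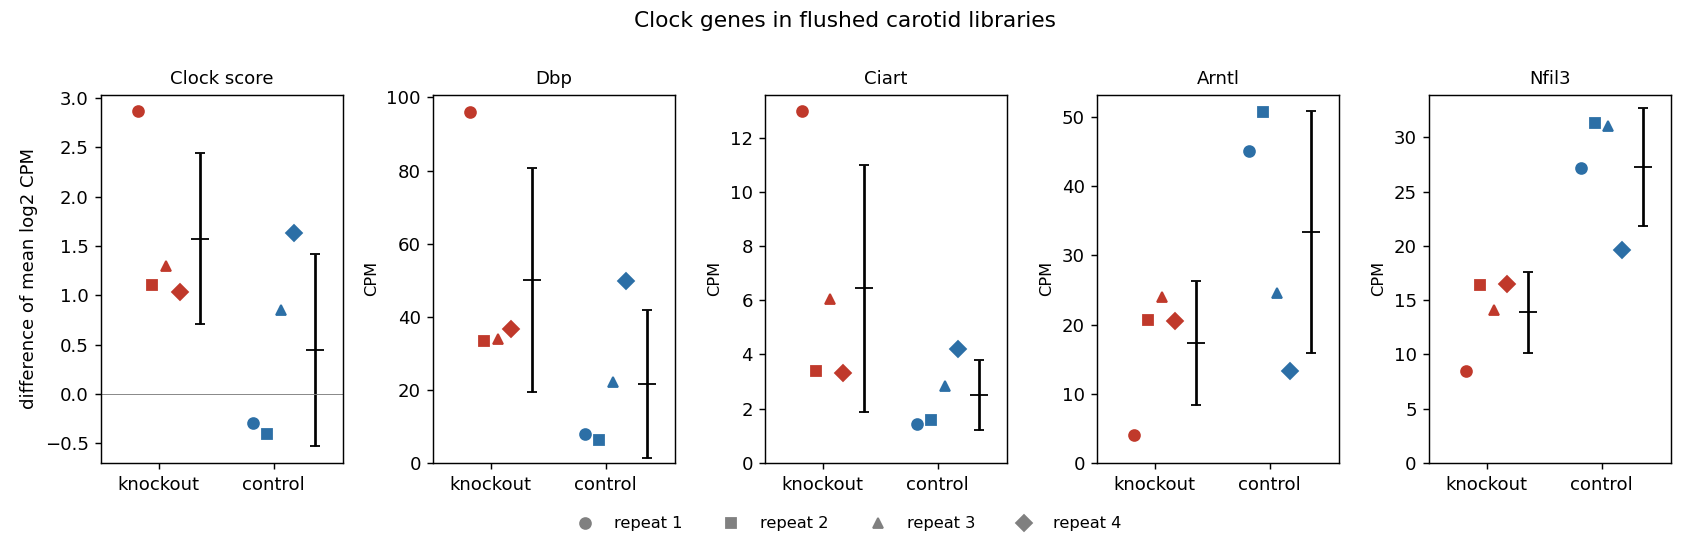
Clock score (difference of mean log2 CPM) and CPM of Dbp, Ciart, Arntl and Nfil3 in each flushed library, knockouts left and controls right, repeat number as marker shape, bars mean ± SD (n = 4). Knockout 1 has the highest score (2.87) and controls 1 and 2 the lowest (-0.29 and -0.41), and the groups overlap in the score and in all genes shown but Nfil3.

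E-box and D-box letters were looked for in promoters from RefSeq (GRCm38.p6). Each runs from 250 bases before to 50 bases after the start of the gene and is printed 5′ to 3′ on the strand of the gene. That of Ciart (chr3:95882179-95882478, - strand) is shown because it holds 3 copies of the E-box CACGTG, in capitals, beginning 116, 58 and 44 bases before the start. That of Per3 (chr4:151044616-151044915, - strand) is shown because it holds 2 copies of the D-box TTATGNAA, in capitals, beginning 205 and 158 bases before the start.
Ciart: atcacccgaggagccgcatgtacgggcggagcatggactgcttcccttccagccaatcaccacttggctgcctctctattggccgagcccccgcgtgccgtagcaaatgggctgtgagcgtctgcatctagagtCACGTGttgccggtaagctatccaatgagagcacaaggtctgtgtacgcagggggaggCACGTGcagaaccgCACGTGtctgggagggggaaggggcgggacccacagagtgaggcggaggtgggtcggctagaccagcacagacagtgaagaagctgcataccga
Per3: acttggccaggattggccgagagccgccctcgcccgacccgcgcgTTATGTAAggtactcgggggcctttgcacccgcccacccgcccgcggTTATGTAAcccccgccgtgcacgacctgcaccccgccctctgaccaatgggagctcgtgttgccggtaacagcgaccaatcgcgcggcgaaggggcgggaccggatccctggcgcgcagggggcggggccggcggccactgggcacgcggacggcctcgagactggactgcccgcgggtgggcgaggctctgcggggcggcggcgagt
The E-box, which reads the same on both strands, is in 2349 of 32851 promoters of this length (7.15%), in 4 of the 10 genes of the first kind with a promoter in the table (Bhlhe41, Ciart, Per1 and Tef) and in 1 of 5 of the second (Cry1). The D-box, searched on both strands, is in 3.39% of promoters, in 2 of the 10 (Per1 and Per3) and in 0 of the 5. A match is a description of the letters and not of binding. Per3 had 94.7, 48.6, 56.0 and 50.4 CPM in knockouts 1 to 4 and 33.2, 32.7, 54.8 and 63.9 CPM in controls 1 to 4, so the groups overlapped (log2 fold change 0.44, SE 0.30).

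The clock score as a covariate left 3 calls (0.0203%), all lower: Poldip2, and Gas1 and Apod, named here because the count is small. The log2 fold change of Poldip2 was then -1.18 (adjusted p = 0.00905), that of Fbn1 -0.80 (0.186), that of Plek2 0.51 (0.122) and that of Nfil3 -0.61 (0.442). Nfil3 is itself a member of the clock score. With the clock and fibroblast scores together 0 genes were called, and 784 were at an unadjusted p under 0.05. What part the hour of collection had in the other differences was not tested.

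Genes that answer to stress and hormones had mostly negative values. All 12 cytosolic heat shock genes had negative log2 fold changes, and the median was -0.47. At an unadjusted p under 0.05, 2 of the 12 were lower, against 3.30% lower over all genes. Their summed level was 2259, 5704, 6212 and 5893 CPM in knockouts 1 to 4 and 6671, 4915, 12109 and 3850 CPM in controls 1 to 4. Knockout 1 was below every control in all 12 genes, and knockouts 2 to 4 lay within the control range of the sum. Without knockout 1 alone the median was -0.29, with 11 of 12 negative. Without knockout 1 and control 3, both libraries highest in fibroblast markers, the median was 0.08, with 8 of 12 positive. Dnajb1, an Hsp40 co-chaperone, averaged 103 ± 18.0 CPM in the knockouts and 154 ± 30.7 CPM in the controls. The inducible chaperone Hspa1a spanned 30.6 to 90.1 CPM in the knockouts and 44.3 to 367 CPM in the controls. Dnajb4, a related co-chaperone outside the list, had 59.6, 70.4, 76.1 and 60.2 CPM in knockouts 1 to 4 and 124, 109, 106 and 86.2 CPM in controls 1 to 4, without overlap (log2 fold change -0.68, SE 0.12).

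All 11 glucocorticoid-induced genes also had negative log2 fold changes, 3 of them at an unadjusted p under 0.05 (median -0.50). Over all genes 3.30% were lower and 2.90% higher at that p. Without knockout 1 alone all 11 stayed negative, with 3 lower at that p and a median of -0.55. Without knockout 1 and control 3, 8 were negative and 3 positive, with 2 lower at that p and a median of -0.28. Dusp1, a phosphatase of MAP kinases, had 261, 249, 205 and 316 CPM in knockouts 1 to 4 and 552, 553, 546 and 272 CPM in controls 1 to 4. Control 4 stood at the knockout level and the 3 other controls were close to each other (log2 fold change -0.90, SE 0.23). Control 4 also had its group's highest clock score (1.63, against 0.85 in control 3 and -0.29 and -0.41 in controls 1 and 2). With the clock score as a covariate in edgeR the log2 fold change of Dusp1 was -0.62 (adjusted p = 0.769). What part the clock had in the level of Dusp1 was not tested. The immediate early genes had 3 of 15 lower and 0 higher at that p, with a median of -0.12. Of the 18 genes of the integrated stress and unfolded protein responses 0 were past it in edgeR and 0 were called by DESeq2, with a median of -0.08. Without knockout 1 alone 0 of these 18 were past that p, with a median of -0.05. Without knockout 1 and control 3, 7 of these 18 were higher and 1 lower, with a median of 0.13. Of 12 proliferation genes 2 were higher (median 0.03). Without knockout 1 there were again 2 higher, but 8 of the 12 were negative (median -0.15).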

How the data were processed

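RNA sequencing of 14 carotid libraries was deposited as 1 table of 35275 genes. The authors deposited unnormalised read counts of each gene, which every comparison here used. Beside them the authors deposited FPKM values and group means of FPKM, and log2 fold changes with p-values and adjusted p-values from a tool that no source used here names. The tools listed in the submitters' processing notes, without roles, are edgeR 3.16.5, DESeq2, HTSeq 0.6.1, STAR-Fusion, STAR 2.5 and TopHat. The notes name mm9, but the deposited coordinates match GRCm38: GENCODE M21 holds 97.8% of the identifiers, 97.6% of them with a start within 5 kb. No source used here states strandedness, so genes that overlap on opposite strands cannot be told apart.

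The 8 flushed libraries were fitted alone: genes were kept by filterByExpr (settings 10 for the count and 15 for the total), libraries were scaled by TMM, and edgeR 4.0.16 (limma 3.58.1, R 4.3.3) gave a two-sided robust quasi-likelihood test. The p-values were adjusted by the method of Benjamini and Hochberg across the 14800 genes. CPM are counts over the TMM-scaled library size, and log2 CPM used a prior count of 2. Library depth of 18267924 to 23287155 counts puts a count of 3, which a 0 allows at 95% confidence, at 0.129 to 0.164 CPM, for counting error only. Flush classes used an offset of 0.1 CPM and CPM scaled over all 14 libraries. Between any 2 flushed libraries chi-square was at least 8.16 times its degrees of freedom, so none was taken for a duplicate. On simulated counts at this design, 200 genes were changed. Called were 71% of the 100 changed by 1 on the log2 scale and 94% of the 100 changed by 2. Another 9 calls were of unchanged genes (5.17% of the calls). How often changes of these sizes are called in the deposited libraries was not tested.

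Genes were named by a rule. Poldip2 came first. Then came the 12 genes each way with the smallest p, a mean of at least 1 CPM and no overlap between the groups, 6 each way within the flush-enriched and within the wall-enriched genes by the same rule, and from each list up to 4 genes with the smallest p. The members and lists were chosen with earlier results of these data known. Alternatives were DESeq2 1.42.0, limma voom, other scalings and filters, all 14 libraries, blocks on repeat or library number, covariates for fibroblast, smooth muscle and clock scores, and leaving out libraries. The same repeat number did not pair libraries: the correlations of their deviations from the group means were -0.32, 0.23, -0.24 and 0.03. 1 list of genes is not reported here. Figures were drawn with matplotlib 3.10.9.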

Additional observations from a re-analysis of the deposited data

Results flagged for a closer look

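In 27 of 200 groups of 4 libraries examined (67 genes, the summed lists and the clock score) the highest or lowest library stood far from the other 3, where chance gives about 1 in 20, and 17 of the 27 were knockout 1.

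Knockout 1 was the far highest knockout in Dcn (991 CPM), Gsn (1087 CPM), Igsf10 (2.86 CPM), Mrc1 (5.18 CPM), Actg2 (4.74 CPM), Dbp (96.1 CPM) and Per3 (94.7 CPM), and in the clock score (2.87). It was the far highest in the summed level of the fibroblast (6150 CPM), macrophage (782 CPM), adipocyte (704 CPM), blood (1327 CPM), lymphocyte (13.5 CPM), Schwann cell (282 CPM) and pericyte (247 CPM) lists. It was the far lowest knockout in the summed Bmal1-side clock genes (65.6 CPM) and in the heat shock list (2259 CPM). The pericyte and lymphocyte sums of the other knockouts were 109 to 121 CPM and 9.25 to 9.56 CPM.

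Among the other knockouts, Zbtb46 was far highest in knockout 3 (118 CPM), Slc9a3r2 was far lowest in knockout 2 (1184 CPM) and the summed junction genes were far highest in knockout 4 (13283 CPM). Among the controls, Gsn (1844 CPM) and Lrp1 (71.8 CPM) were far highest in control 3, Dusp1 (272 CPM) far lowest in control 4, Me1 (68.1 CPM) far lowest in control 1 and Pold1 (43.4 CPM) far lowest in control 2. The summed thyroid (6.70 CPM) and skeletal muscle (5.27 CPM) markers were far highest in control 2, against at most 2.36 and 2.78 CPM in the other controls.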

How the results depend on the processing

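Calls depended on the tool and on single libraries. Against 0 calls in edgeR, DESeq2 called 68 genes, voom with sample quality weights 4, the fit with no filter 14, the fit of all 14 libraries 4, the block on library number 13, the fibroblast score covariate 105, the clock score covariate 3 and the fit without knockout 1 and control 3 97. Leaving out 1 library at a time gave 0 to 20 calls. Poldip2 was negative in all 23 alternatives, and its adjusted p passed in 6: DESeq2 (-0.89), voom (-0.95), the block on library number (-0.92), the fit without knockout 1 and control 3 (-1.07), the clock score covariate (-1.18) and the fit without knockout 1. Leaving out 1 library at a time gave log2 fold changes of -1.05 to -0.80. The repeat number as a block (replicate block) changed no call, with 0 calls and -0.90 for Poldip2 (adjusted p = 0.847).

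The 67 genes refitted under every alternative include all but Pcna, Nox4, Eln, Col4a1, Gas1, Apod and the genes named for their promoters alone. Among the 67, directions turned in no alternative other than those with score covariates. With the smooth muscle score they turned for Itga8 (-0.013), Cnn1 (-0.033), Acta2 (-0.069), Ciart (-0.71), Bhlhe41 (-0.17), Dbp (-1.06), Per3 (-0.66), Arntl (1.54) and Npas2 (1.72). With the fibroblast and smooth muscle scores together they turned for Nrp1 (0.013), Acta2 (-0.73), Bhlhe41 (-0.27), Dbp (-0.43), Npas2 (0.24) and Dusp1 (0.30). With the clock score they turned for Per3 (-0.13), Arntl (0.23) and Npas2 (0.36), and with the fibroblast score for Dcn (0.34). With the clock and fibroblast scores together they turned for Dcn (0.29), Klf4 (0.048), Dbp (-0.37), Per3 (-0.033), Npas2 (0.24), Dusp1 (0.36) and Hspa1a (0.27). Dcn belongs to the fibroblast score, and Cnn1 and Acta2 belong to the smooth muscle score. Ciart, Bhlhe41, Dbp, Per3, Arntl and Npas2 belong to the clock score. Where a gene belongs to its covariate, the fit in part regresses it on itself. The covariates were computed from the same libraries and leave 5 or fewer degrees of freedom, and the cause of each turn was not tested. Counting error limits genes near 1 CPM.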
